A study of Homo sapiens with 9 samples.

Results

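RNA levels were described in vector control MCF-10A cells, an established line of human breast epithelial cells that grows without forming tumours. The group holds the 3 arrays labelled as vector control, replicates 1 to 3, of 9 arrays in the series, and they were chosen by their labels alone. These cells carried a doxycycline-inducible (Tet-on) vector without an ERK2 insert and, like the cells of both mutant groups (ERK2 D319N and ERK2 Y261A), had been treated with doxycycline and were sampled after 7 days. They grew on plastic in DMEM/F12 medium with 5% donor horse serum, EGF at 20 ng/ml, insulin at 10 µg/ml, hydrocortisone at 0.5 µg/ml and cholera toxin at 100 ng/ml. The 6 arrays of the mutant groups were not used. Levels therefore describe 1 line in 1 rich medium with vector and doxycycline present. The parental line without them was not analysed here. Separate cultures are not named for the replicates in the labels, so an SD over the 3 arrays may be technical.

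The breast duct is lined by an inner layer of luminal cells, which carry simple keratins and include hormone-sensing cells with estrogen receptor, and an outer layer of basal cells, which carry stratified keratins and attach to the basement membrane through laminin and integrins. Basal cells in the gland also make smooth muscle proteins and contract. MCF-10A cells are known for EGF-dependent growth, for wild-type RAS genes and for a homozygous loss of CDKN2A and CDKN2B on the short arm of chromosome 9. Hydrocortisone acts through the glucocorticoid receptor, insulin through its own and the IGF1 receptor, and cholera toxin by locking the stimulatory G protein of adenylyl cyclase in its active state.

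Each level is a log2 signal from a whole-transcript microarray, processed by the authors. Probes differ in how brightly they respond, so a level was read against reference levels on the same arrays, and a difference in level between single genes is not read as a difference in RNA. Where a gene has several rows, its level is that of the brightest, as for KRT8, ENO1, ITGB1, NRG1, DCN and CYP1B1 below. The first reference is a set of 23 background rows, which hold 25-base probes grouped by their number of G and C bases, from 3 to 25. Their mean was 4.84, 4.82 and 4.87 on the 3 arrays. They rose steeply with GC content, from 1.88 ± 0.01 (SD, n = 3) at 3 G and C bases to 4.67 at 15 and 11.91 ± 0.19 at 25. The row of 25 G and C bases set the strictest threshold, and 22 of 22411 genes (0.0982%) exceeded it on every array. The second reference was added after the levels had been seen. It is the 95th percentile of 193 measured genes that define other tissues, and it lay at 6.83, 6.87 and 6.93 on the 3 arrays. Examples are albumin of the liver and crystallins of the lens, and the leukocyte and endothelial genes below also belong to the 193. By this reference, called the other-tissue level below, 6810 of 22411 genes (30.4%) were higher on every array, and among the 17154 protein-coding genes 6151 (35.9%) were. At the low end, 5589 genes (24.9%) lay at or under the background mean on every array, 3320 of them protein-coding (19.4% of those). Genes outside these classes lay between the references. List counts below are to be read beside the shares of all protein-coding genes, 35.9% above the other-tissue level and 19.4% at or under the background mean. The lists were chosen with earlier results of these data known. A share that departs from these describes the listed members and not a pathway at large. A threshold from the background rows without the 3 highest and the 3 lowest GC counts, at 8.56, was passed by 1331 genes (5.94%), of them 1122 protein-coding (6.54% of those).

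**Figure D1:**
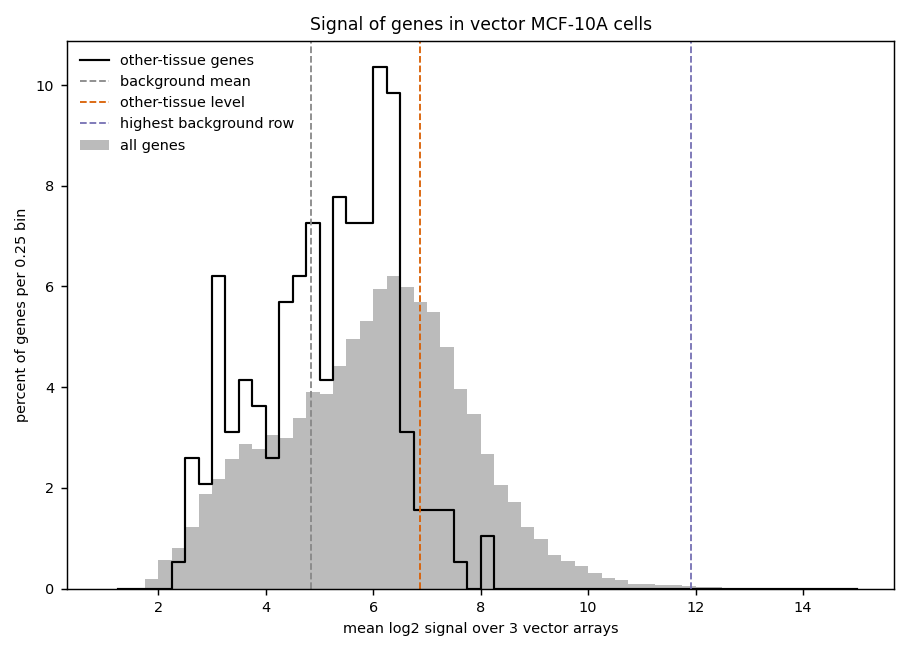
Percent of genes per 0.25 bin of mean log2 signal over the 3 vector arrays, for all 22411 genes (bars) and for the 193 other-tissue genes (black outline), with dashed lines at the background mean, the other-tissue level and the highest background row. The outline lies to the left of the upper part of the bars, and 22 genes lie beyond the highest background row on every array.

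The 3 arrays lay close together. Over all rows with 1 gene symbol their pairwise Pearson correlations were 0.9977 to 0.9986, as a description across genes, which are not independent replicates. The median SD of a gene was 0.036 and the 95th percentile 0.172. For 3762 genes the value was identical on the 3 arrays, and for 5676 it was identical on a pair of them. An SD printed as 0 stands for such an identical value and not for a perfectly known level.

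The 22 genes above every background row included the basal keratin KRT5, structural RNAs and pseudogenes. They held 10 protein-coding genes (0.0583% of those measured). These were MT2A, a metallothionein, EEF1A1 and EEF2, elongation factors, PABPC1, which binds poly(A) tails, RPS15 of the small ribosomal subunit, ACTG1, a cytoplasmic actin, TUBA1B, a tubulin, GAPDH of glycolysis, KRT5, and SLC44A4. SLC44A4 has 8 rows on the array and its level is that of the brightest. The others were small structural RNAs (RN7SL1, RN7SK, RMRP, RNY3, BCYRN1, SNORD13 and SNORD3A), the microRNA row MIR4466, and pseudogenes near-identical to expressed genes (RNY3P1, RN7SKP9, RPL41P2 and ANXA2P2), whose probes may share their signal. The other 10 of the 20 protein-coding genes with the brightest rows were IFITM2, TMSB10, MT1E, RPL19, RPS16, RPS28, SLC7A5, ANXA2, TUBB and NPIPB4, with means from 11.69 to 11.98. TUBB (8 rows) and NPIPB4 have close copies, so their levels are uncertain. Among the 22, the 10 with the widest spread were MIR4466, RNY3P1, ACTG1, BCYRN1, PABPC1, ANXA2P2, SNORD3A, RPS15, TUBA1B and RMRP, with SDs of 0.05 to 0.11.

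Genes above and below the references differed in the sequence before their start, given here as a description with no test. A promoter here is the 250 bases before the first start listed for a gene in RefSeq (GRCh38.p14). Of 6151 protein-coding genes above the other-tissue level, 5176 had one (84.1%), with a median of 22 CG dinucleotides. Of 3320 at or under the background mean, 2702 had one (81.4%), with a median of 4. The observed-to-expected CG ratio was at least 0.6 in 85.3% of the first and 32.5% of the second, against 64.9% of 13936 promoters of all protein-coding genes measured. The letters TATAAA, searched on both strands, occurred in 4.85% of the first and 18.8% of the second, against 8.83% of the promoters of all protein-coding genes measured and 11.1% of all 27305 promoters in the table. The median GC content of the promoters of genes at or under the background mean was 48.4%, against 66.4% above the other-tissue level. The background rows also rise with the GC content of the probe, and the part of probe GC in this difference was not tested. Promoters of both kinds are shown over their last 100 bases, with each CG in capitals, to make the contrast visible. KRT5 and SFN, which mark basal cells, have few CG in the 250 bases (6 and 3) although their levels are above the other-tissue level. SCD of fatty acid synthesis and MKI67 of proliferating cells have 23 and 30. PTPRC of leukocytes and ALB of the liver have 1 and 3, and their levels are under the background mean. The regions are chr12:52520395-52520494 for KRT5 (minus strand), chr1:26863049-26863148 for SFN (plus strand), chr10:100347133-100347232 for SCD (plus strand), chr10:128126424-128126523 for MKI67 (minus strand), chr1:198638940-198639039 for PTPRC (plus strand) and chr4:73404187-73404286 for ALB (plus strand).
KRT5: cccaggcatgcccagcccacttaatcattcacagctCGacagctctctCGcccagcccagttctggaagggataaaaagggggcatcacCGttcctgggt
SFN: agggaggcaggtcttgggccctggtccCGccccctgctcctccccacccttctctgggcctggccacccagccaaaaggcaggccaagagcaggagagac
SCD: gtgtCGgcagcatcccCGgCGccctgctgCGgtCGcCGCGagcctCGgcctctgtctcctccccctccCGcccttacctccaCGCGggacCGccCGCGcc
MKI67: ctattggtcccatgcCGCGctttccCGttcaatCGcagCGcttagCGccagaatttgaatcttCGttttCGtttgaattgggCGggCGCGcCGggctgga
PTPRC: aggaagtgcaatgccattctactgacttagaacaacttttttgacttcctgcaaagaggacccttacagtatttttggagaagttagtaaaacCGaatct
ALB: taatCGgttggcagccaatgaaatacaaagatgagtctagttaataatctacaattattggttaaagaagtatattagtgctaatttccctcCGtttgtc

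The microRNA rows of interest in an epithelial line are those of the miR-200 family, which repress ZEB1 and ZEB2 and are known for keeping epithelial identity, and of the miR-221 and miR-222 pair, known to be higher in basal than in luminal breast cells. They are shown 5′ to 3′ with the seed (bases 2 to 8) in capitals. A row on this array stands for the annotated microRNA gene and not for the mature strand. The miR-200 family falls into a group with the seed AAUACUG and a group with AACACUG. The separate pair of miR-221 and miR-222 shares GCUACAU. MIR4466 and MIR3621 are added because their rows are bright, and both are rich in G and C.
miR-200b-3p: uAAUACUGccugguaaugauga
miR-200c-3p: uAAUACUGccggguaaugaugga
miR-429: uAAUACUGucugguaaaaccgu
miR-200a-3p: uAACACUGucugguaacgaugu
miR-141-3p: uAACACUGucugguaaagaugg
miR-221-3p: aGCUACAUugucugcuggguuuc
miR-222-3p: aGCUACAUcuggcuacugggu
miR-4466: gGGUGCGGgccggcgggg
miR-3621: cGCGGGUCggggucugcagg

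Of the first seed group, MIR200B was at 5.83, 5.80 and 5.86, MIR200C at 4.50, 4.45 and 4.50, and MIR429 at 3.85, 3.75 and 3.90. Of the second, MIR200A was at 3.49, 3.76 and 3.78, and MIR141 at 2.34, 2.52 and 3.42. All 5 lay under the other-tissue level on every array, and only MIR200B stayed above the background mean on each. MIR141 had the widest spread of them (SD 0.58, n = 3), with replicate 3 apart from the other arrays. MIR221 was at 5.23, 5.47 and 5.71 and MIR222 at 3.28, 3.34 and 3.54. Set against the background row whose GC count is closest to that of its hairpin (2.79), MIR221 stood 2.68 higher, whereas MIR222 stood 0.04 higher than its own (3.35). MIR200B stood 1.16 above its matched row and MIR200C 0.48 above. MIR429 and MIR141 were lower than their matched rows, at -0.16 and -1.24. Most microRNA rows lay above their matched row. Of 848 outside the miR-548 family with a hairpin, 740 did, and the median over the 848 was 0.98. An offset near or under that median is not read here as a sign of RNA. MIR4466 was at 13.16, 13.06 and 12.93 and MIR3621 at 10.71, 10.70 and 10.43, with matched rows at 7.94 and 6.47 (hairpin GC 85.2% and 72.9%). No source used here gives the probe sequences, and the match rests on the hairpin.

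Of 15 measured genes of basal identity, 14 lay above the other-tissue level and none at or under the background mean (35.9% and 19.4% of all protein-coding genes). KRT5, the type II keratin of basal cells, was at 12.78, 12.82 and 12.74. KRT6C, a keratin of stratified and wounded epithelium, was at 11.30, 11.43 and 11.39. Both stood far over the other-tissue level on every array. KRT6C has near-identical relatives in KRT6A and KRT6B, which are not analysed here, and its row may share their signal. KRT14, the partner of KRT5 in the basal filament, was at 6.94, 7.02 and 6.95 and cleared the other-tissue level narrowly on every array. KRT15 (6.46 ± 0.08) and KRT16 (6.45 ± 0.04) lay between the references. KRT5, KRT6C, KRT14, KRT15 and KRT16 form a separate list of keratins, not part of the 15. Of these 5, 3 lay above the other-tissue level and 2 between. ITGB4, the integrin subunit of the hemidesmosome, was at 10.63, 10.71 and 10.77, and CDH3, which encodes P-cadherin, at 9.65 on each array. SFN, the 14-3-3 sigma protein of stratified epithelium, was at 11.28, 11.32 and 11.40, and DSG3, a desmosomal cadherin of basal layers, at 9.03, 9.10 and 9.02. SNAI2, a transcription factor of basal mammary cells, was at 7.91, 7.96 and 8.04. NGFR was the gene among the 15 not above the other-tissue level on all arrays, at 6.68, 6.73 and 6.68. TP63, KRT17 and COL17A1 are not analysed here, which leaves the label unchecked for these basal markers.

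Of 12 smooth muscle genes of myoepithelial cells, 4 lay above the other-tissue level, a share (33.3%) near that of all protein-coding genes (35.9%), with 7 between and 1 at or under the background mean. ACTA2, smooth muscle actin, was at 7.21 on each array, TPM2 at 8.37 on each array, SMTN at 7.18, 7.24 and 7.30 and CALD1 at 7.49, 7.49 and 7.47. TPM2, SMTN and CALD1 are also made by non-muscle cells. CNN1 (calponin) at 6.16 on each array, MYH11 (smooth muscle myosin) at 6.11 on each array, TAGLN at 6.71 on each array and the oxytocin receptor OXTR at 6.79, 6.74 and 6.69 lay between the references. ACTG2, the enteric smooth muscle actin, was at 4.82 on each array, at or under the background mean.

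Luminal keratins were present beside the basal ones, while most genes of hormone-sensing and milk-producing luminal cells were not above the other-tissue level. KRT18 was at 10.14, 10.30 and 10.24, KRT8 at 9.04, 9.11 and 8.95 and KRT7 at 11.16, 11.29 and 11.22, all above the other-tissue level. KRT19, the simple keratin of mature luminal cells, was at 6.20, 6.21 and 6.22 and lay between the references on every array. Of 18 hormone-sensing genes, 3 lay above the other-tissue level, namely GATA3 at 7.21, 7.21 and 7.22, XBP1 at 7.40, 7.43 and 7.43 and CA12 at 7.69, 7.77 and 7.81. ESR1, the estrogen receptor, was at 5.26 on each array, and FOXA1, its pioneer factor, at 6.29, 6.38 and 6.39. Progesterone receptor PGR at 2.97, 2.97 and 2.98, AGR2 at 2.95 on each array, AGR3 at 2.32, 2.36 and 2.36 and ERBB4 at 4.28 on each array lay under the background mean. The estrogen targets TFF1 (5.94 ± 0.10) and GREB1 (5.90 ± 0.02) lay between the references. Of 20 genes of luminal progenitors and alveolar cells, 11 lay at or under the background mean and 5 above the other-tissue level. The low ones included ELF5 (4.10 ± 0), the alveolar master factor, KIT (3.22 ± 0.05) and the caseins CSN2 (3.09 ± 0.08) and CSN3 (3.65 ± 0.06). The high ones were SLPI, a secreted protease inhibitor (10.00 ± 0.01), EPCAM (8.88 ± 0.19), MUC1 (7.94 ± 0.02), CD24 (7.67 ± 0.16) and ALDH1A3 (7.06 ± 0.06).

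The adhesion genes CDH1 and EPCAM and vimentin were above the other-tissue level on every array. CDH1, which encodes E-cadherin, was at 8.99 ± 0.03, from 8.95 to 9.01, and EPCAM at 8.97, 9.01 and 8.67, its replicate 3 lowest. VIM, the intermediate filament of mesenchymal cells that cultured basal cells also make, was at 9.99, 10.03 and 10.02. Of 17 junction genes 11 lay above the other-tissue level, among them the catenins JUP (9.37 ± 0.05) and CTNNA1 (8.92 ± 0), the tight junction proteins CLDN1 (9.02 ± 0.03) and CLDN7 (8.34 ± 0.07), the tricellular junction protein MARVELD2 (7.02 ± 0.07) and CDH1, and none under the background mean. OCLN, occludin, at 6.12, 6.16 and 6.02, and CLDN4 at 5.69, 5.71 and 5.69 lay between. Of 19 mesenchymal genes, 4 lay above the other-tissue level, namely VIM, SPARC (7.47 ± 0), FOXC2 (7.11 ± 0.07) and TWIST2 (6.99 ± 0.01). N-cadherin CDH2 lay at the line, at 6.87, 6.95 and 6.88, with replicate 3 under it. The transcription factors ZEB1 (5.32 ± 0.10), SNAI1 (5.95 ± 0.05) and TWIST1 (6.37 ± 0.13) lay between. Among fibroblast markers, LUM (2.83 ± 0.09) and PDGFRA (4.35 ± 0.02) lay at or under the background mean. DCN (5.01 ± 0.0023), COL1A1 (6.76 ± 0) and COL1A2 (5.53 ± 0) lay between. Leukocyte marker PTPRC was at 2.97 on each array, CD3E at 5.51, 5.37 and 5.37 and CSF1R at 6.21, 6.21 and 6.22. Endothelial PECAM1 was at 4.47, 4.38 and 4.88, CDH5 at 5.64, 5.64 and 5.66 and VWF at 5.63 on each array. None of the fibroblast, leukocyte and endothelial markers given here reached the other-tissue level on any array, whereas CDH1, EPCAM, KRT5, KRT8 and KRT18, which mark a breast epithelial cell, exceeded it on all. In the longer lists of these cell types, 2 of 19 leukocyte genes (CD68, 7.25 ± 0.04, and LAPTM5, 7.15 ± 0.09) and 2 of 14 endothelial genes (EGFL7, 7.33 ± 0.0038, and CLDN5, 7.02 ± 0.07) exceeded it. The leukocyte and endothelial genes are among those that set the other-tissue level, so most genes of that set lie under it by construction. Their place under it is therefore not read as a sign of cell type.

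**Figure D2:**
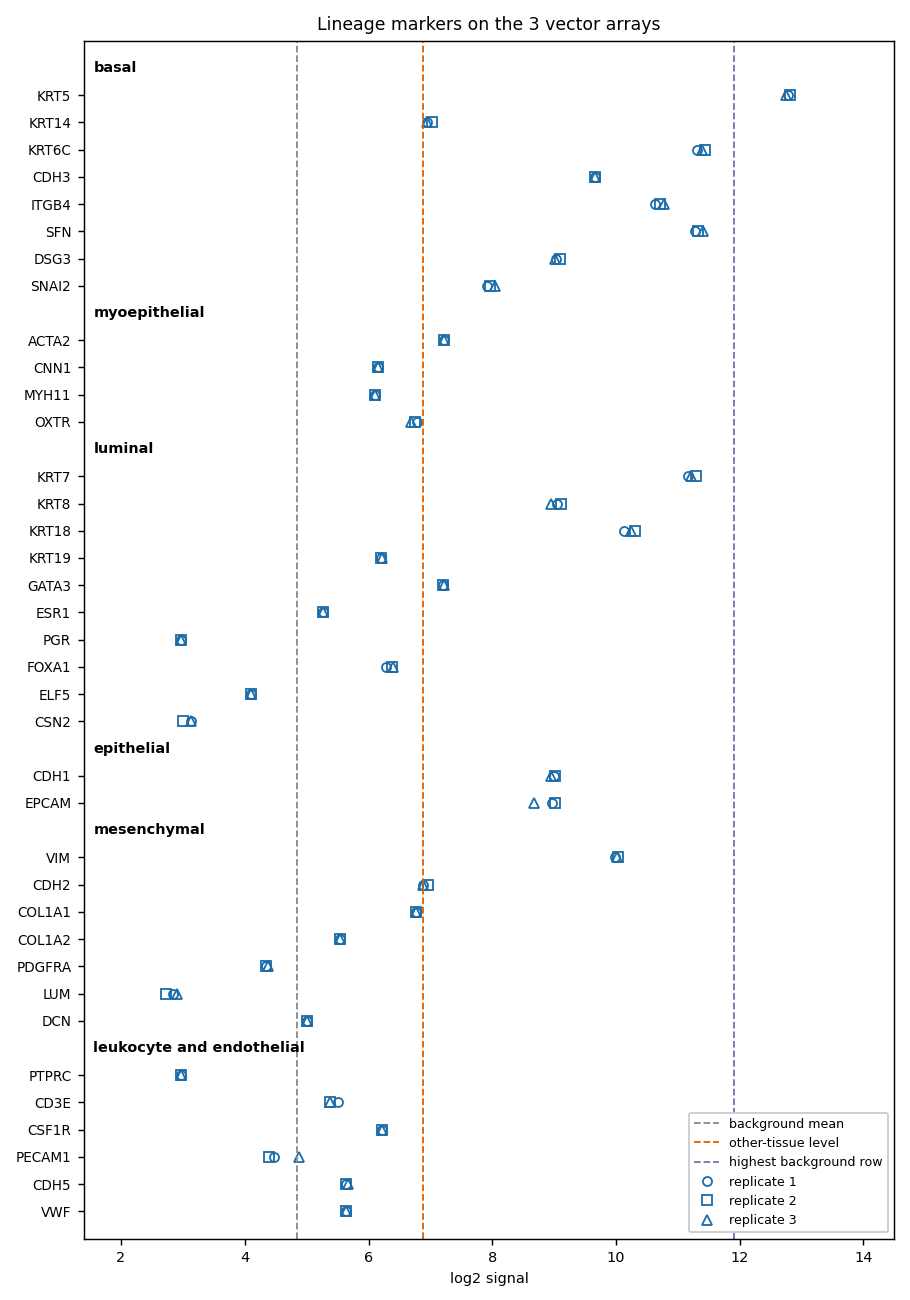
Log2 signal of lineage markers on each of the 3 vector arrays (circle, square and triangle for replicates 1, 2 and 3), grouped by lineage, with dashed lines at the background mean, the other-tissue level and the highest background row. KRT5 lies beyond the highest background row, most basal markers, simple keratins, CDH1, EPCAM and VIM lie to the right of the other-tissue level, and LUM, PDGFRA, PTPRC, PGR, ELF5 and CSN2 lie to the left of the background mean.

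Genes of terminal squamous differentiation lay mostly between the references. Of 20 genes, 3 lay above the other-tissue level, 14 between and 3 at or under the background mean. Involucrin IVL was at 4.80, 4.76 and 4.46, SPRR2A at 4.35, 4.35 and 4.38 and the psoriasin gene S100A7 at 4.30, 4.15 and 4.08, all under the background mean. KRT1 (5.03 ± 0.06), KRT10 (5.90 ± 0.05) and filaggrin FLG (5.08 ± 0.03) lay between. The 3 above were S100A9 (7.43 ± 0.18), CNFN (7.22 ± 0.17) and CALML5 (7.07 ± 0.10), and each varied by an SD of 0.10 to 0.18. Among 24 claudin genes only CLDN1, CLDN3, CLDN5 and CLDN7 lay above the other-tissue level. Of 7 desmosomal cadherins, DSC2 (7.35 ± 0.03), DSC3, DSG2 (10.09 ± 0.07) and DSG3 did, and the other 3 lay under the background mean. Of 16 connexins GJB5 alone did (8.18 ± 0.07).

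**Figure D3:**
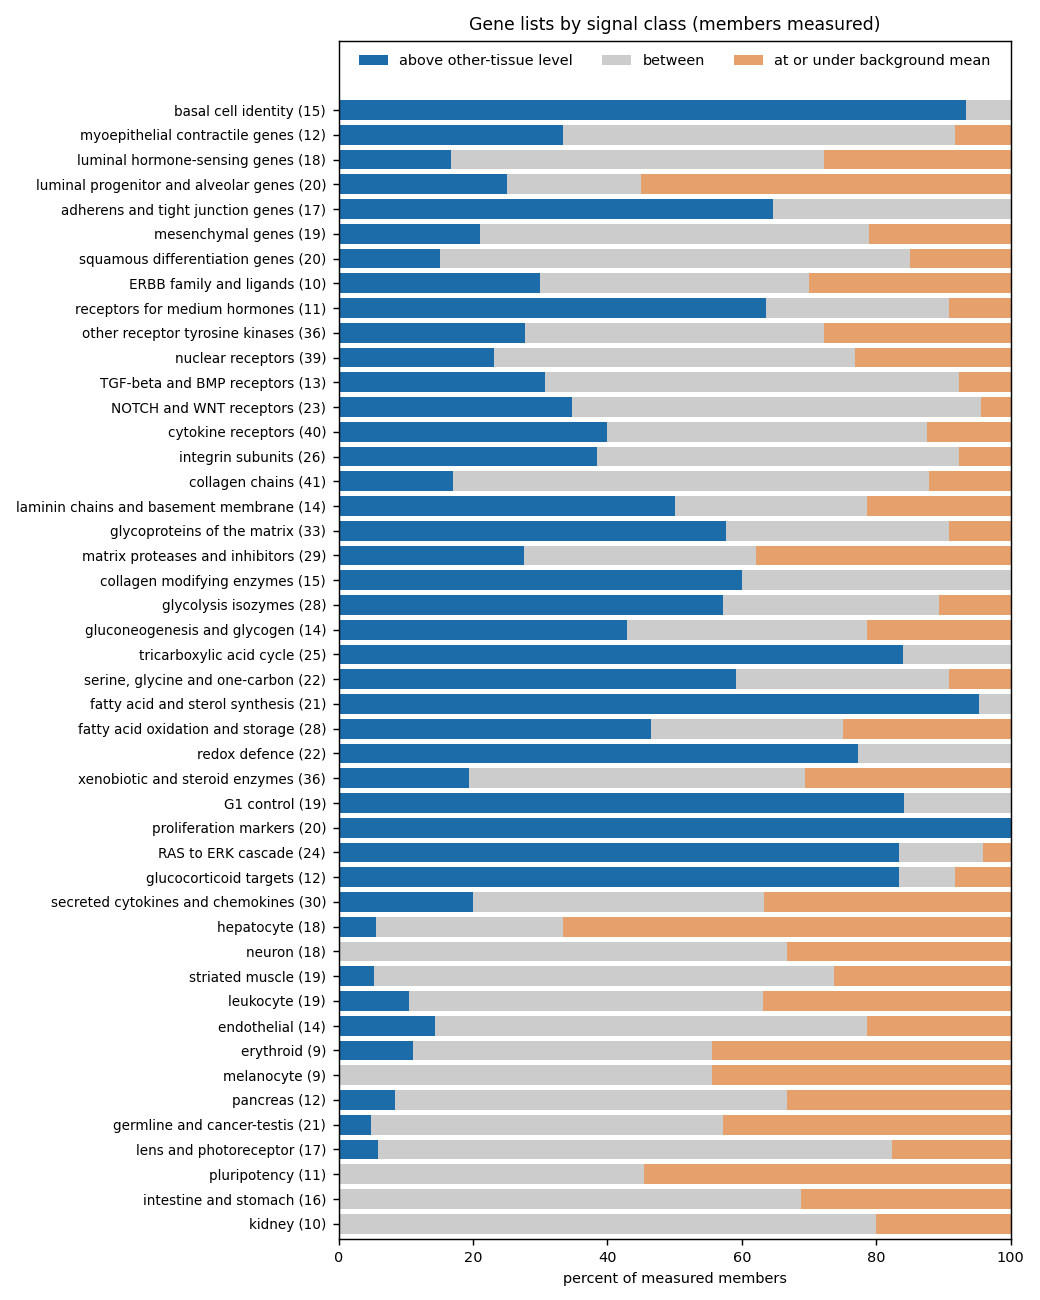
Percent of the measured members of each gene list (number measured in brackets) that lay above the other-tissue level (blue), between the references (grey) or at or under the background mean (orange) on all 3 vector arrays. Proliferation markers are wholly blue and fatty acid and sterol synthesis nearly so (20 of 21), while the other-tissue lists, which set the level, hold 10 of 193 members above it by construction.

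One list, without EGFR, held 11 measured genes that receive or modify the signals of factors and hormones in the medium. Of these 11, 7 lay above the other-tissue level (63.6%, against 35.9% of protein-coding genes). EGFR, the receptor for EGF, which belongs to the ERBB list, was at 10.04, 10.06 and 10.05. Of the 11, IGF1R was at 8.99, 9.05 and 9.12 and IGF2R at 8.52, 8.54 and 8.58, while the insulin receptor INSR, at 6.56, 6.66 and 6.75, lay between the references. The glucocorticoid receptor NR3C1 was at 7.57, 7.57 and 7.54, the mineralocorticoid receptor NR3C2 at 4.70 on each array, under the background mean. GNAS, which encodes the G protein subunit that cholera toxin modifies, was at 7.43 on each array, and the adenylyl cyclase genes ADCY3 (8.12 ± 0.06), ADCY7 (7.20 ± 0.03) and ADCY9 (7.14 ± 0.02) lay above the other-tissue level. Of the ERBB family, ERBB3 was at 6.23, 6.28 and 6.33, between the references, ERBB4 was under the background mean, and ERBB2 was not analysed here. Of its ligands, epigen EPGN (9.16 ± 0.14) and TGFA (7.40 ± 0.04) lay above the other-tissue level, HBEGF (6.17 ± 0.05), EREG (5.67 ± 0.01) and NRG1 (6.06 ± 0.01) between, and EGF itself (3.58 ± 0.02) and BTC (4.45 ± 0.05) at or under the background mean.

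Of 12 known targets of the glucocorticoid receptor, 10 lay above the other-tissue level (83.3%, against 35.9% of protein-coding genes). FKBP5, a chaperone that feeds back on the receptor, was at 10.52, 10.55 and 10.32. MT2A was at 13.88, 13.90 and 13.85, DUSP1, a phosphatase of MAP kinases, at 9.30, 9.31 and 9.30, and ZBTB16 at 8.39, 8.39 and 8.43. ERRFI1, an inhibitor of EGFR, was at 10.09, 10.02 and 9.98. SGK1, at 6.05 on each array, lay between, and TAT, the liver target, at 3.97, 3.95 and 3.97, lay under the background mean. These genes also answer to other signals, and no array without hydrocortisone was analysed here.

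Among 36 other receptor tyrosine kinases, 10 lay above the other-tissue level (27.8%) and 10 at or under the background mean (27.8%). The shares of all protein-coding genes were 35.9% and 19.4%. Above were MET (8.19 ± 0.04), the receptor of hepatocyte growth factor, AXL (8.78 ± 0.06), EPHA2 (8.63 ± 0.04), RYK (8.76 ± 0.01), DDR1 (7.88 ± 0.07), a collagen receptor, and ROS1 (7.86 ± 0.04). The DDR1 level is that of the brightest of its rows. FGFR2 was at 5.30, 5.30 and 5.32 and FGFR1 at 6.19 on each array, between the references. Low ones included the vessel and blood receptors FLT1 (3.62 ± 0), FLT3 (3.62 ± 0.03), TEK (4.07 ± 0.03) and KIT, named above. Of 39 nuclear receptors, 9 lay above the other-tissue level (23.1%). They included the vitamin D receptor VDR (7.94 ± 0.04), the retinoid receptors RXRA (7.85 ± 0.05) and RARG (7.34 ± 0.01), PPARD (7.60 ± 0.01), NR2F6 (8.71 ± 0.04) and NR3C1. RARB (4.19 ± 0.04), RXRG (4.61 ± 0), NR5A2 (3.93 ± 0.01) and PGR were among the 9 under the background mean, and PPARG (5.50 ± 0.03) and ESR2 (5.14 ± 0) lay between. The retinoic acid receptors fell into all 3 classes, with RARA between at 6.80, 6.83 and 6.80.

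Of 13 measured receptors for TGF-beta and BMP, TGFBR2 (9.67, 9.71 and 9.69), BMPR2 (8.32 ± 0.08), endoglin ENG (8.83 ± 0.05) and betaglycan TGFBR3 (7.04 ± 0.0043) lay above the other-tissue level. TGFBR1 was at 6.84, 6.75 and 6.92, just at the line, and ACVR1C (4.47 ± 0.01) was under the background mean. Of 23 genes of the NOTCH and WNT receptor list, 8 lay above, a share (34.8%) near that of all protein-coding genes (35.9%), among them NOTCH1 (7.92 ± 0.06), NOTCH2 (8.14 ± 0.06), the ligand JAG2 (7.99 ± 0.07), FZD6 (7.95 ± 0.06), and the WNT co-receptors LRP5 (8.45 ± 0.07) and LRP6 (7.49 ± 0.02). The stem cell receptor LGR5 (3.88 ± 0.01) was the member under the background mean.

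Of 40 cytokine receptors, 16 lay above the other-tissue level, a share (40%) near that of all protein-coding genes (35.9%). Of 30 secreted cytokines and chemokines 6 did (20.0%), while 11 of those 30 lay at or under the background mean. The receptors included IL20RB (9.60 ± 0.01), the oncostatin M receptor OSMR (8.84 ± 0.04), its partner IL6ST (8.28 ± 0.09), the TNF receptor TNFRSF1A (8.39 ± 0.0002), IFNGR2 (8.10 ± 0.04) and LTBR (8.75 ± 0.02). IL7R (4.57 ± 0.04), IL18R1 (4.59 ± 0.08) and IL1RL1 (3.68 ± 0.06) were under the background mean. Among ligands, IL18 was at 9.25, 9.25 and 9.08, VEGFA at 7.48, 7.49 and 7.53, CXCL16 at 7.40, 7.45 and 7.37, and IL1A at 7.17, 7.17 and 7.05. CXCL8 (5.34 ± 0.14) and IL1B (5.71 ± 0.13) lay between, and IL6 (4.76 ± 0.02), CXCL5 (4.49 ± 0.0012), IL33 (3.00 ± 0.06) and TSLP (3.78 ± 0.03) under the background mean. The receptor and ligand lists are of different make, and their shares were not tested against each other.

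Of 26 integrin subunits, 10 lay above the other-tissue level, a share (38.5%) near that of all protein-coding genes (35.9%). ITGA6 was at 9.72, 9.73 and 9.53, ITGA3 at 9.60, 9.68 and 9.72 and ITGB1 at 10.44, 10.43 and 10.27. With ITGB4, given above, these subunits form the laminin receptors. ITGA2, the collagen receptor subunit, was at 8.19, 8.15 and 8.11, and ITGA5, of the fibronectin receptor, at 8.70, 8.70 and 8.80. ITGB6 was at 6.09, 6.02 and 6.03, between the references. The leukocyte subunits ITGAL (5.54 ± 0), ITGAM (5.60 ± 0.02) and ITGAX (5.99 ± 0) lay between as well, and ITGA4 (2.96 ± 0) and ITGA8 (4.18 ± 0) under the background mean.

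Of 41 collagen chains, 7 lay above the other-tissue level (17.1%, against 35.9% of protein-coding genes). They included COL4A2 (7.28, 7.31 and 7.48) of the basement membrane network, COL7A1 (7.08, 7.06 and 7.19) of anchoring fibrils, COL8A1 (7.79, 7.79 and 7.72), COL18A1, COL6A1 and COL6A2. COL1A1, COL1A2, COL2A1 (6.70 ± 0), COL5A1 (6.50 ± 0) and COL5A2 (5.79 ± 0.03), which form fibrils, lay between the references. Of 14 laminin and basement membrane genes, 7 lay above, including LAMB1 at 9.01 on each array, LAMC1 at 9.20, 9.21 and 9.18, the heparan sulfate proteoglycans HSPG2 (8.21 ± 0.06) and AGRN (8.13 ± 0.06), and the hemidesmosome plaque genes PLEC (9.03 ± 0.06) and DST (8.44 ± 0.02). LAMA2 (4.10 ± 0) and LAMA4 (4.03 ± 0.02) were under the background mean, and nidogens NID1 (5.67 ± 0.01) and NID2 (5.30 ± 0) lay between.

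Of 33 matrix glycoproteins, 19 lay above the other-tissue level (57.6%, against 35.9% of protein-coding genes). THBS1, a matricellular protein that activates TGF-beta, was at 11.52, 11.56 and 11.56, and TGFBI at 10.98, 11.06 and 11.01. IGFBP7 was at 9.62, 9.63 and 9.61, EFEMP1 at 9.30, 9.28 and 9.23, and LTBP1, which stores latent TGF-beta, at 8.29, 8.26 and 8.20. Fibronectin FN1 was at 7.32, 7.45 and 7.46, above the other-tissue level on each array. Tenascin TNC at 5.91, 5.97 and 5.91 lay between, and periostin POSTN at 3.33, 3.20 and 3.42 and osteopontin SPP1 at 3.66, 3.66 and 3.74 lay under the background mean.

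Among 29 measured matrix proteases and inhibitors, 8 lay above the other-tissue level (27.6%) and 11 at or under the background mean (37.9%). The shares of all protein-coding genes were 35.9% and 19.4%. The membrane protease MMP14 was at 8.25, 8.24 and 8.39, the serine protease matriptase ST14 at 8.76, 8.80 and 8.82, and its inhibitors SPINT1 at 8.67, 8.75 and 8.71 and SPINT2 at 8.90, 8.91 and 8.94. Maspin SERPINB5, a basal epithelial serpin, was at 9.48, 9.55 and 9.38, and TIMP3 at 9.23, 9.28 and 9.26. MMP1 (3.61 ± 0.01), MMP10 (3.93 ± 0.03), MMP7 (3.15 ± 0) and MMP13 (3.66 ± 0.09) were under the background mean, and MMP2 (5.87 ± 0.05) and MMP9 (6.62 ± 0.01) lay between. Of 15 enzymes that modify collagen, 9 lay above, including P4HB (9.71 ± 0), PLOD1 (8.61 ± 0.07) and PLOD2 (8.95 ± 0.13), the collagen chaperone SERPINH1 (8.03 ± 0.07), COLGALT1 (9.28 ± 0.08) and LOXL2 (7.14 ± 0.04). LOX, at 6.78, 6.72 and 6.70, lay between.

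Of 202 measured metabolic genes in the lists, 117 lay above the other-tissue level (57.9%, against 35.9% of protein-coding genes). For glucose transport, enolase, pyruvate kinase and lactate dehydrogenase, the forms of general use lay above it and the forms of liver, muscle, brain or testis did not. Other families did not follow this. The liver and muscle phosphofructokinases PFKL (8.32 ± 0.01) and PFKM (7.95 ± 0.04) lay above the other-tissue level. CPT1B, the muscle form of CPT1, lay at the line, at 6.929 on each array against a level of 6.927 on replicate 3. SLC2A1, the widespread glucose transporter, was at 8.40, 8.38 and 8.49, while the liver form SLC2A2 (3.40 ± 0) and the neuronal form SLC2A3 (4.73 ± 0) lay at or under the background mean. Hexokinase HK1 was at 8.73, 8.73 and 8.74, and the leukocyte form HK3, at 6.34 on each array, lay between. HK2, at 6.89, 6.89 and 7.01, cleared the other-tissue level narrowly on every array. Enolase ENO1 was at 11.12, 11.14 and 11.15, whereas ENO2 of neurons (5.87 ± 0) and ENO3 of muscle (6.23 ± 0.01) lay between. Pyruvate kinase PKM was at 11.33, 11.37 and 11.35, and the liver and red cell form PKLR at 6.13 on each array. Lactate dehydrogenases LDHA and LDHB were at 9.62, 9.62 and 9.50 and at 9.86, 9.86 and 9.75, and the testis form LDHC at 3.45 on each array, under the background mean. In all, 16 of 28 glycolysis genes lay above the other-tissue level and 3 at or under the background mean.

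Of 14 genes of gluconeogenesis and glycogen, 6 lay above. Brain and liver glycogen phosphorylases PYGB (10.22, 10.25 and 10.38) and PYGL (8.72, 8.72 and 8.75) and the muscle form of glycogen synthase GYS1 (8.38, 8.44 and 8.42), which most tissues use, were above. The liver synthase GYS2 (3.64 ± 0.06) and glucose-6-phosphatase G6PC1 (4.47 ± 0.09) were under the background mean, and FBP1 (5.16 ± 0) and PCK1 (4.93 ± 0.01) lay between. Pentose phosphate genes TKT (10.50 ± 0.04), PGD (9.57 ± 0.02), TALDO1 (9.44 ± 0.06) and PGLS (7.35 ± 0.03) lay above, 4 of 6 measured.

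**Figure D4:**
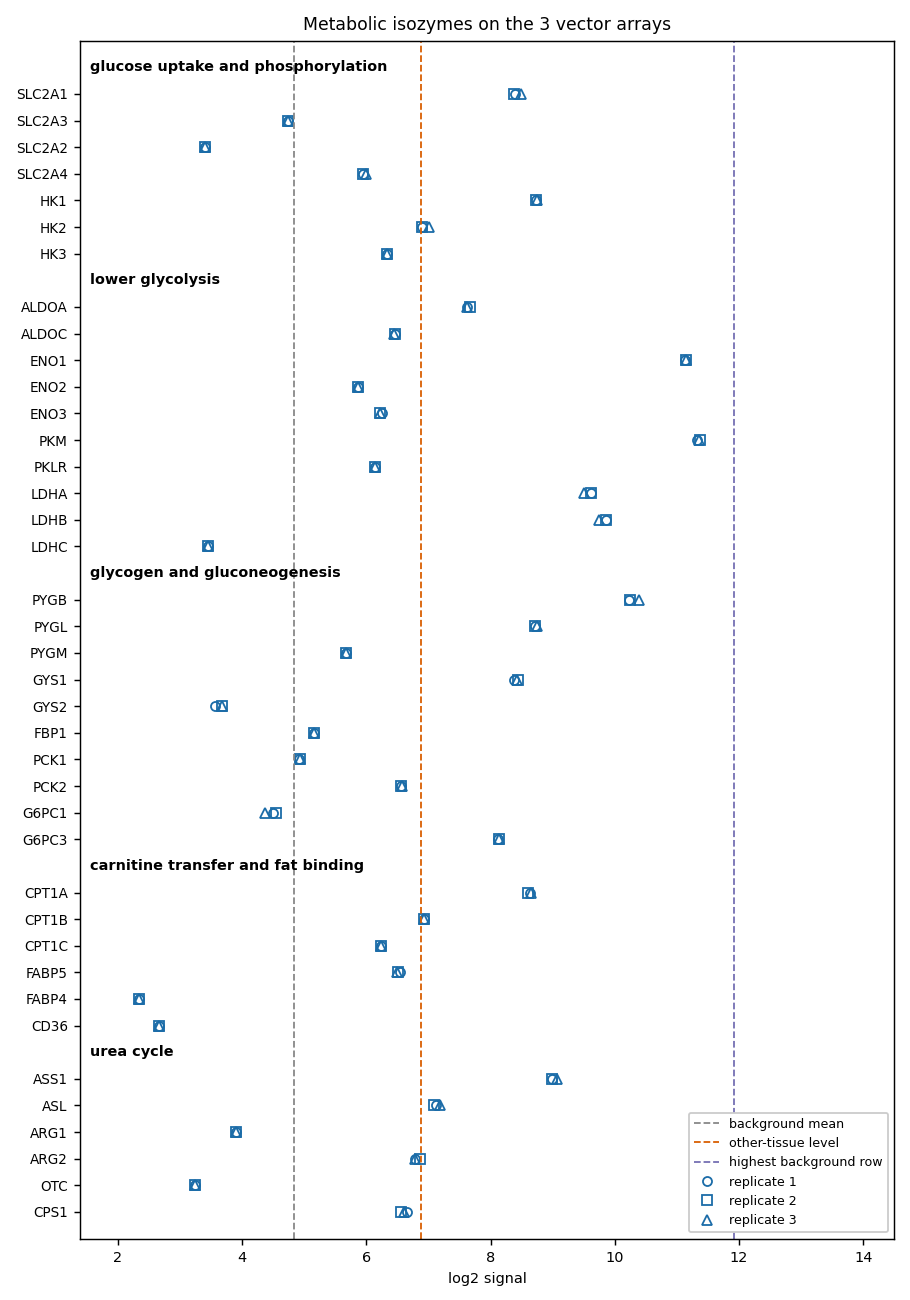
Log2 signal of metabolic genes on each of the 3 vector arrays (circle, square and triangle for replicates 1, 2 and 3), grouped by step, with dashed lines at the background mean, the other-tissue level and the highest background row. SLC2A1, HK1, ENO1, PKM, LDHA, LDHB, PYGB, PYGL and GYS1 lie to the right of the other-tissue level, and SLC2A2, LDHC, GYS2, FABP4, CD36, ARG1 and OTC to the left of the background mean.

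Of 25 genes of the citric acid cycle and its entry, 21 lay above the other-tissue level (84.0%, against 35.9% of protein-coding genes) and none at or under the background mean. Citrate synthase CS was at 9.92, 9.96 and 9.91, MDH2 at 9.46, 9.48 and 9.51 and IDH3A at 9.06, 9.04 and 8.91, and the testis form PDHA2, at 4.71, 4.75 and 5.06, was near the background mean. Of 21 genes of fatty acid and sterol synthesis, 20 lay above the other-tissue level. ATP citrate lyase ACLY was at 10.47, 10.48 and 10.48, fatty acid synthase FASN at 9.95, 10.07 and 10.10, and the stearoyl-CoA desaturase SCD at 11.46, 11.52 and 11.41. The sterol enzymes SQLE at 10.01, 10.01 and 9.93 and DHCR7 at 10.28, 10.30 and 10.30 were above as well. The exception was ACACB, the acetyl-CoA carboxylase of oxidative tissues, at 6.30 on each array.

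Of 28 genes of fatty acid oxidation and storage, 13 lay above the other-tissue level (46.4%, against 35.9% of protein-coding genes) and 7 at or under the background mean. CPT1A, which admits fatty acids to mitochondria, was at 8.63, 8.61 and 8.66, and HADHA of beta-oxidation at 9.85, 9.84 and 9.84. The fatty acid translocase CD36 (2.67 ± 0), the adipocyte binding protein FABP4 (2.35 ± 0), LPL (4.41 ± 0.01) and ACADL (3.26 ± 0.02) were under the background mean. FABP5, the epidermal binding protein, at 6.54, 6.50 and 6.49, lay between. Of 22 genes of serine, glycine and one-carbon metabolism and nitrogen, 13 lay above, including PSAT1 (9.31 ± 0.07), SHMT2 (8.94 ± 0.02), MTHFD1 (9.48 ± 0.02) and argininosuccinate synthase ASS1 (9.02 ± 0.05). PHGDH, the first enzyme of serine synthesis, was at 6.61, 6.67 and 6.70, between the references. The liver urea cycle genes ARG1 (3.90 ± 0) and OTC (3.25 ± 0) were under the background mean.

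Redox genes were above the other-tissue level in 17 of 22 cases (77.3%, against 35.9% of protein-coding genes) and in none at or under the background mean. PRDX1 was at 11.08, 11.06 and 11.07, TXN at 10.43, 10.44 and 10.43, SOD1 at 9.80, 9.81 and 9.82, and NQO1, a target of NRF2, at 10.20, 10.22 and 10.14. The cystine transporter SLC7A11 was at 8.97, 8.93 and 8.82. HMOX1, haem oxygenase, at 6.56, 6.58 and 6.58, and extracellular SOD3 (5.91 ± 0.01) lay between. Xenobiotic and steroid enzymes were above in 7 of 36 cases, with 11 at or under the background mean. Those above included the aldo-keto reductases AKR1C1 (7.67 ± 0.04), AKR1C2 (9.59 ± 0.06) and AKR1C3 (7.28 ± 0.05), which are near-identical in sequence and may share signal, HSD17B4 (7.96 ± 0.06), and SULT1E1 (7.55 ± 0.08), which sulfates estrogen. Aromatase CYP19A1 (3.58 ± 0.01), CYP3A4 (3.58 ± 0), CYP24A1 (4.24 ± 0.04) and SULT2A1 (2.88 ± 0.02) were under the background mean, and CYP1A1 (4.93 ± 0) and CYP1B1 (6.23 ± 0.01) lay between.

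Every one of 20 measured proliferation markers lay above the other-tissue level on all arrays. MKI67 was at 10.58, 10.60 and 10.49, PLK1 at 10.35, 10.40 and 10.39, CCNA2 at 9.63, 9.66 and 9.46, TOP2A at 9.64, 9.60 and 9.34 and FOXM1 at 9.24, 9.31 and 9.27. The replication factor MCM2 was at 7.56, 7.58 and 7.74. Of 19 genes of G1 control 16 lay above and none at or under the background mean. MYC was at 10.25, 10.27 and 10.23, CDK4 at 9.19, 9.25 and 9.29, cyclin D1 gene CCND1 at 8.84, 8.84 and 8.81, RB1 at 8.48, 8.51 and 8.28, and the inhibitor CDKN1A at 8.02 on each array.

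Of 24 measured genes of the RAS to ERK cascade, 20 lay above the other-tissue level (83.3%, against 35.9% of protein-coding genes). The adaptor SHC1 was at 10.44, 10.50 and 10.56, the kinases MAP2K1 at 8.60, 8.59 and 8.65 and MAP2K2 at 8.23, 8.19 and 8.22, and MAPK3, which encodes ERK1, at 7.96, 7.95 and 7.96. The feedback phosphatase DUSP6 was at 7.69, 7.66 and 7.57, and SPRY4 at 7.54, 7.67 and 7.58. RPS6KA6 (3.06 ± 0.02) was the member under the background mean.

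MCF-10A cells are known to have lost CDKN2A and CDKN2B on 9p21. In a list of these genes and their near neighbours, 5 genes and not the whole band, none reached the other-tissue level, against 35.9% of protein-coding genes. CDKN2A was at 5.42, 5.43 and 5.43 and CDKN2B at 4.98, 4.93 and 5.09, both over the background mean but between the references. MTAP, which salvages methionine and lies beside CDKN2A, was at 4.20, 4.20 and 3.87, under the background mean, and its level is that of the brighter of its rows. DMRTA1 was at 2.53, 2.69 and 2.68 and ELAVL2 at 5.74, 5.74 and 5.84. The nearest genes with signal above the other-tissue level were PLAA (7.90, the same on each array) and IFT74 (7.07 ± 0.09) on one side and RPS6 (7.02 ± 0.04) on the other. All 13 interferon alpha genes measured, which lie between these flanks, were under the background mean, from 2.29 to 4.45. They are silent in most resting cells, so a low level there does not tell lost from unused genes. CDKN2A and CDKN2B, known to be absent from these cells, thus had levels over the background mean, and a level between the references is not read here as a sign of RNA.

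The genes of other tissues were mostly near the background. Of 193 measured, 70 (36.3%) lay at or under the background mean, against 19.4% of protein-coding genes and 24.9% of all genes. Another 113 lay between, and 10 above the level they set. ALB was at 3.22 on each array, the fibrinogen gene FGB at 3.21, 3.10 and 3.21, titin TTN at 3.85 on each array, the T cell gene CD2 at 3.28, 3.22 and 3.31, the pigment enzyme TYR at 3.18, 2.99 and 3.18, glucagon GCG at 3.22 on each array, and the meiotic gene SYCP1 at 2.46, 2.49 and 2.62. These 7 all lay under the background mean on each array. Hepatocyte genes were in this class in 12 of 18 cases, pluripotency genes in 6 of 11, germline genes in 9 of 21, and kidney genes in 2 of 10. NANOG was at 4.51, 4.51 and 4.58 and SOX2 at 5.46 on each array. The 10 exceptions were ACTA1 (8.15 ± 0.10), CRYGD (8.12 ± 0.05), KLF1 (7.55 ± 0.05), EGFL7 (7.33 ± 0.0038), MAGEA3 (7.29 ± 0.07), CTRB1 (7.29 ± 0.0006), CD68 (7.25 ± 0.04), LAPTM5 (7.15 ± 0.09), CLDN5 (7.02 ± 0.07) and SERPINA1 (6.98 ± 0). ACTA1 and MAGEA3 have near-identical relatives, and ACTG1, an actin, was among the genes over every background row. Whether probes of these rows take up signal of relatives was not tested.

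HOX genes, which keep the positional identity of a tissue, were measured in part. Of 25 measured, 2 lay above the other-tissue level, HOXC6 at 7.10, 6.98 and 7.11 and HOXC13 at 7.79, 7.94 and 8.26, and 2 at or under the background mean, HOXC4 (3.61 ± 0.02) and HOXD10 (4.54 ± 0). HOXC13, which drives keratin genes of hair and nail, had an SD of 0.24, with replicate 3 highest. HOXB7 was at 6.72, 6.63 and 6.63. Of the HOXA cluster only HOXA2 (5.32 ± 0.06) was measured, and the others were not analysed here.

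Of 366 olfactory receptor genes, 321 (87.7%) lay at or under the background mean and 1, OR7G1 (8.66 ± 0.01), above the other-tissue level. All 13 interferon alpha genes, 27 of 30 beta-defensins and 18 of 26 taste receptors lay at or under the background mean, and no member of these 3 families reached the other-tissue level. At the other end, all 7 subunits of the chaperonin CCT (8.87 to 10.20) and all 16 cytoplasmic aminoacyl tRNA synthetases (7.07 to 9.98) lay above it. So did 43 of 54 cytosolic ribosomal proteins, 30 of 36 proteasome subunits, 13 of 16 ATP synthase subunits and 23 of 31 NADH dehydrogenase subunits. Of 325 solute carriers 101 (31.1%) did, against 35.9% of protein-coding genes and 30.4% of all genes. Of 533 ZNF genes 71 (13.3%) did. Voltage-gated potassium channels had 1 of 34 above, KCNG3 (8.28 ± 0.07), and aquaporins 0 of 10. Keratin-associated proteins of hair had 13 of 88 above, from a family whose highest level was 7.55.

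Classes of RNA differed as well. Of 1937 long non-coding RNA genes, 85 (4.39%) lay above the other-tissue level and 45.6% at or under the background mean. Of 240 small nucleolar RNA genes 32.1% lay above and 42.1% at or under. MicroRNA rows lay above in 155 of 1041 cases (14.9%). Their level followed the GC content of the hairpin, which 849 of them (81.6%) have in the RefSeq table. The Pearson correlation was 0.823 and Spearman's 0.830 across these rows, which share arrays, labelling and base composition, and it is given as a description. In hairpins with 30 to 40% GC (140 rows) the median level was 2.52, beside a median of 2.01 for the matched background rows. At 40 to 50% (274 rows) it was 3.32 beside 2.38, at 60 to 70% (115 rows) 6.57 beside 5.47, and from 70% on (56 rows) 7.74 beside 6.88. The median level lay over the matched median in every class of GC content, and both rose together.

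**Figure D5:**
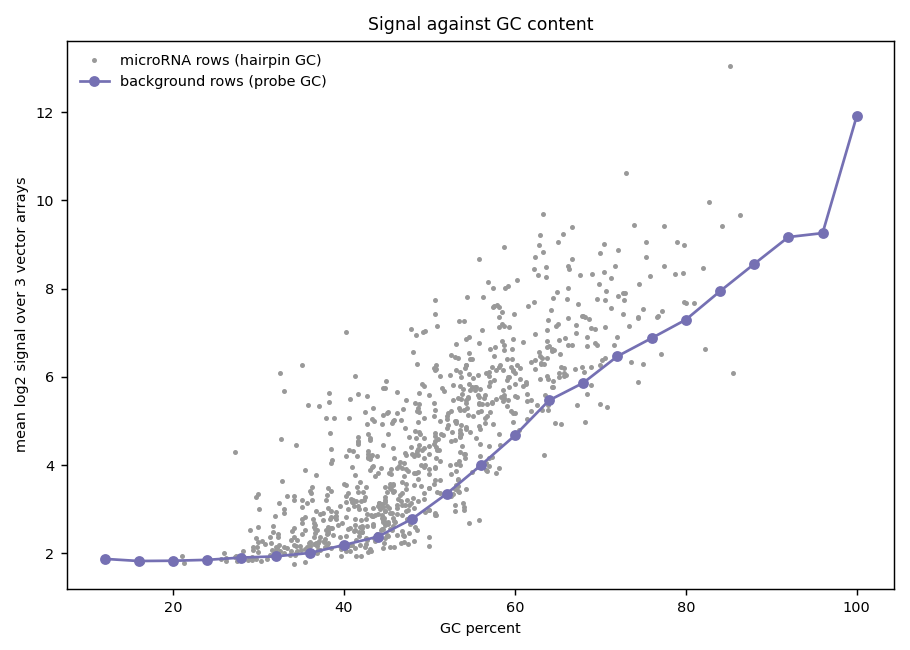
Mean log2 signal over the 3 vector arrays against GC percent, for 849 microRNA rows (grey points, GC of the hairpin) and for the 23 background rows (purple line, GC of the 25-base probe). Both rise together from left to right.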

How the data were processed

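RNA of the 3 vector arrays was measured on a whole-transcript microarray after column extraction and labelling of cDNA with biotin, per the labels' protocols. The deposited values are log2 RMA signals that the authors made with Affymetrix Expression Console 1.4, per the submitters' processing notes. By design, RMA subtracts background, equalises the distribution of probe signals and summarises a row by median polish, which can return identical values for several arrays. Whether the arrays of all groups were normalised together, the genome build of the array and its probe sequences are not given in the sources used here. Arrays have no read depth, and their number limits the precision.

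Of 70523 rows, 23781 carried 1 gene symbol, 1543 several and 42204 of the transcript cluster rows none. RefSeq names (GRCh38.p14) replaced 306 older symbols, and 4 were not matched. Where a gene had more rows than 1 (528 genes), its brightest row by the vector mean was used, and in 195 of these the rows differed by over 1. This gave 22411 genes. No test was run, since there is 1 group. A gene was put in a class only where it met the threshold on all 3 arrays. The planned threshold, the highest background row, lay near the top of the scale, so the other-tissue level was added after the values were seen. Of 1070 genes in 54 lists, 960 were measured. Some list members are not reported here. The members and lists were chosen with earlier results of these data known. Any list member may be named, with up to 6 above a reference and 4 under the background mean for lists of over 12 members, together with the 20 brightest protein-coding genes and the 10 most variable genes above every background row. HK2, PFKL and PFKM are named beyond this limit. Alternatives changed the threshold, the rule over arrays, the row per gene, the gene set and the arrays. Values were computed with Python 3.11.15, pandas 2.3.3 and numpy 2.4.6, and plots drawn with matplotlib 3.10.9. Promoter and microRNA sequences are from RefSeq, GRCh38.p14.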

Additional observations from a re-analysis of the deposited data

Results flagged for a closer look

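Rows without a gene symbol were not part of the description above. Of 42204 such rows, 127 lay above every background row on all 3 vector arrays, 4174 (9.89%) lay above the other-tissue level and 22684 (53.7%) lay at or under the background mean. They are listed because they carry signal in data that no comparison used. The source of that signal was not tested.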

How the results depend on the processing

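No paired analysis was possible because the values describe 1 group, with no comparison between groups. The count of genes above the background depended most on the threshold. It was 22 against every background row, 5 with 1 log2 unit added to the highest row, 576 against the 95th percentile of the background rows, 1331 without the 3 highest and 3 lowest GC counts, 12397 against the background mean plus 1, and 6810 against the other-tissue level. Among protein-coding genes alone it was 10. Leaving out each replicate in turn gave 22 to 30, without replicate 3 the 30. The count above the other-tissue level fell to 3655 at the 99th percentile and rose to 14590 with the 95th percentile of olfactory receptor genes, and leaving out a replicate gave 6819 to 7148. The count at or under the background mean, 5589, was 3320 among protein-coding genes alone and 5641 to 5664 without a replicate. Of 328 list counts above the other-tissue level over all alternatives, 306 stayed within 1.5 times, and of 378 list counts at or under the background mean, 364 did. A single gene level was called moved by another rule, a difference larger than its SD over the arrays, which can be small. Of 22 levels of genes with several rows, the mean of the rows moved 21 by this rule, so those levels rest on the row chosen.

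The background rows rise with GC content, and rows of different GC content therefore meet a fixed threshold unequally. Without probe sequences, levels were not corrected for it. A low row can also stand for probes that respond weakly, and a level under a reference does not show that a transcript is absent.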

Other observations

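Among genes above the other-tissue level, the 10 with the widest spread over the vector arrays were MTRNR2L2, MIR548F3, MIR548H4, MIR548H2, MIR548A3, MIR4449, MIR548Q, MIR548I4, RNU6-80P and MIR548AC. MTRNR2L2, a nuclear copy of mitochondrial ribosomal RNA sequence, was at 10.79, 10.80 and 9.96. MIR548I4 was at 10.70, 10.76 and 10.06, and MIR548H2 at 10.71, 10.46 and 9.92. In all of these, replicate 3 was lowest.

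Rows of the miR-548 family, a large primate family that arose from transposons, were therefore looked at together, a choice made after their values were seen. All 18 of the 42 rows that lay above the other-tissue level had their lowest value on replicate 3, with a median difference of -0.55 between replicate 3 and the mean of replicates 1 and 2. Of 137 other microRNA rows above that level, 46 (33.6%) had their lowest value on replicate 3, and the median difference was -0.01. Over all 6810 genes above it the share was 36.6%. The members share sequence and are not independent, and what moves with this pattern on replicate 3 was not tested. A hairpin sequence was at hand for 1 of the 42 rows.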
